A study of Mus musculus with 2 samples.

Results

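The genes described here carry out and regulate protein folding in the endoplasmic reticulum (ER). They comprise 37 genes named for known roles in the unfolded protein response, ER chaperoning, disulfide bond formation, ER-associated degradation and translocation into the ER, and they were located by gene symbol on the array. All 37 were measured, among 18638 genes with a symbol and 30858 features in all, and all 37 were well above background on all 8 arrays. A feature is a gene represented by its brightest kept probe, or a kept probe that has no gene symbol.

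RNA came from isolated pancreatic islets of 8-week-old C57BL/6J mice, taken 3 days after a 60% pancreatectomy or 3 days after a sham operation. Total RNA of each group was labelled with Cy3 and hybridised to 4 one-colour Agilent arrays, which gives 4 pancreatectomy arrays and 4 sham arrays on 1 slide. Whether the 4 arrays within a group represent different mice or islet preparations is not given in the labels. P-values here therefore measure the spread between arrays, part of which may be technical. The islet identity of the RNA was checked with 14 endocrine markers, all of which were measured. The log2 of their summed signal lay between 21.07 and 21.87 on pancreatectomy arrays and between 21.13 and 22.26 on sham arrays. The same sum over 21 measured acinar markers was 18.19 to 20.17 on pancreatectomy arrays and 17.31 to 20.03 on sham arrays. The RNA thus also held acinar transcripts. In RNA of whole islets, fewer cells of a type and less RNA per cell cannot be told apart.

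Secreted proteins such as proinsulin fold in the ER, and an excess of unfolded protein there is sensed by the membrane proteins IRE1 (Ern1), PERK (Eif2ak3) and ATF6 (Atf6). IRE1 splices Xbp1 mRNA so that it encodes an active transcription factor, and ATF6 is cut in the Golgi to release another. Both switch on genes for chaperones and for the degradation of misfolded proteins. PERK phosphorylates the initiation factor eIF2alpha, which slows translation in general while favouring that of ATF4, a transcription factor for amino acid supply, redox balance and, under lasting stress, the death-associated factor CHOP (Ddit3). Beta cells make much proinsulin and depend on this machinery, and loss of PERK causes diabetes in mice. Sensor activation takes place on protein and by Xbp1 splicing, neither of which was analysed here. The values below are transcript levels.

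In limma, none of the 37 genes passed the threshold of 0.05 on the adjusted p in either direction, and none had groups that did not overlap. Over all 30858 features, 0.544% passed as higher and 0.0843% as lower after pancreatectomy, and 2.99% had non-overlapping groups with pancreatectomy higher and 5.3% with pancreatectomy lower. At an unadjusted p under 0.05, 1 of the 37 genes was higher (Derl3) and 0 were lower, against 4.22% and 6.28% of all features. The change was above 0 for 26 of the 37 genes, against 45.1% of all features. Its median was 0.12 on the log2 scale for the 37 genes and -0.04 for all features, and every change given here is pancreatectomy minus sham.

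The 24 genes taken here as ATF6 or XBP1 targets and the 6 taken as PERK-ATF4 targets (Ddit3, Trib3, Asns, Chac1, Ppp1r15a and Ero1l) had medians of opposite sign. The 24 are the genes given below for chaperoning, disulfide bond formation, ER-associated degradation and translocation, without Canx, Edem2 and Ero1l. The median change was 0.24 for the ATF6/XBP1 targets, 20 of which had a value above 0, and -0.19 for the PERK-ATF4 targets, of which 1 did. Single arrays moved both medians. The ATF6/XBP1 median was 0.13 without pancreatectomy array 2, 0.12 without array 4 and 0.38 without array 3, and the PERK-ATF4 median was -0.06 without array 3. With each array centred on its own median in place of its 75th percentile, all features had a median of -0.16. The medians were then 0.11 for the ATF6/XBP1 targets, -0.31 for the PERK-ATF4 targets and -0.00 for all 37 genes.

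**Figure D1:**
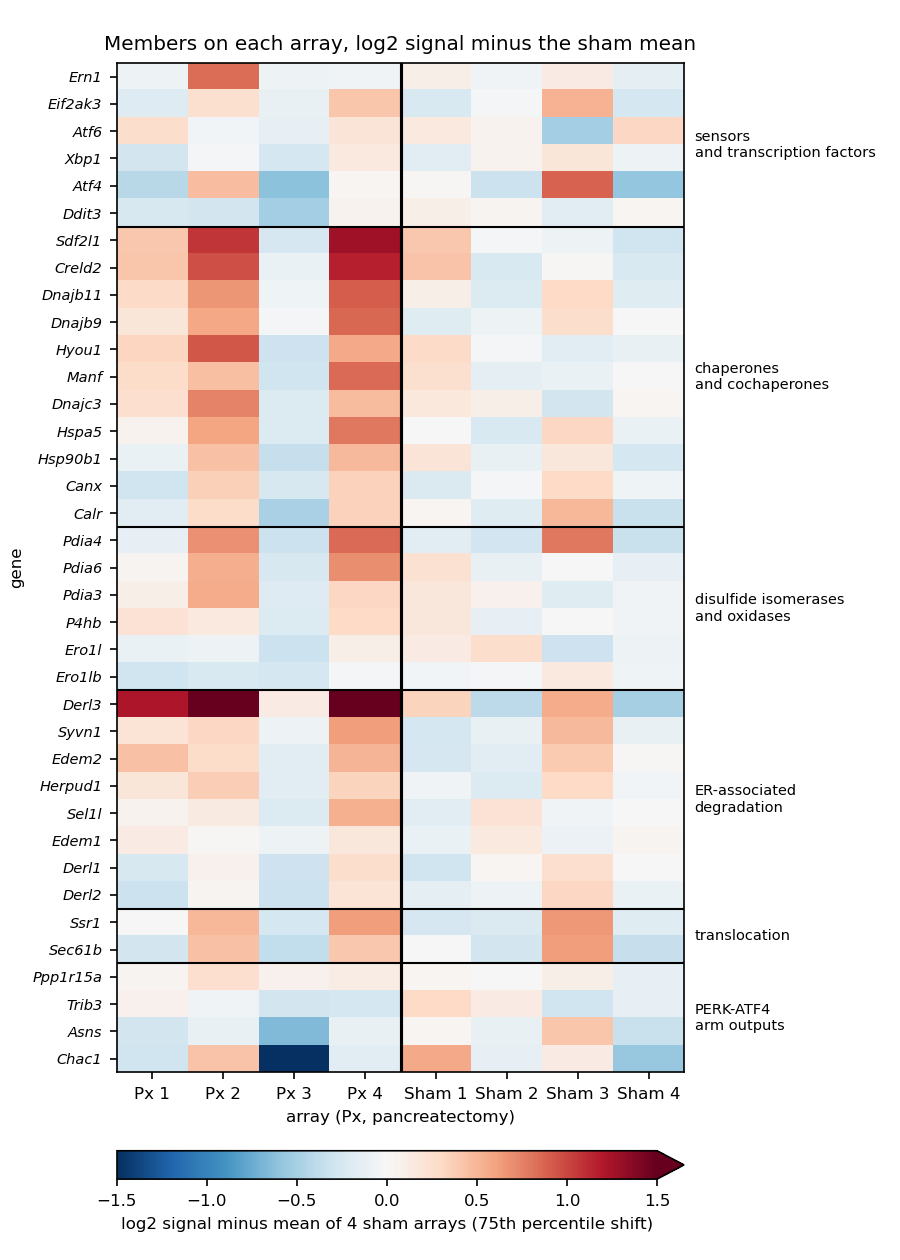
Signal of the 37 genes (rows, grouped by role and ordered by change) on 4 pancreatectomy arrays (Px) and 4 sham arrays (columns), as log2 signal minus the mean of the 4 sham arrays. Red is above and blue below the sham mean, and colours end at 1.5 in either direction. Derl3 passes the red end on pancreatectomy arrays 2 and 4, and Chac1 passes the blue end on pancreatectomy array 3. Among chaperones, pancreatectomy arrays 2 and 4 are red and array 3 is mostly blue.

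Promoter sequence is shown here to place the genes before their levels are given. Windows of 250 bases before to 50 after the transcription start (RefSeq, GRCm38.p6) were found for 33 of the 37 genes, and not for Manf, Hyou1, Derl1 and Atf6. They were searched on both strands for the ER stress element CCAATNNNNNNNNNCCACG, at which NF-Y and ATF6 bind, for the ER stress element II, ATTGGNCCACG, and for TGATGNAA, a core of the C/EBP-ATF element bound by ATF4. The ER stress element and its second form share the letters CCACG, but no match below overlaps another. The ER stress element was found in 10 of the 33 genes (30.3%) and in 0.137% of all 27025 genes with a window. Of these 10, 9 are ATF6/XBP1 targets, the other being Canx. Of the 21 ATF6/XBP1 targets with a window, 9 thus held the element and 12 did not. It was found in 0 of the 6 PERK-ATF4 targets, of which 3 (Trib3, Asns and Chac1) held the C/EBP-ATF core. That core was present in 4.51% of all genes with a window and also in the ATF6/XBP1 target Herpud1. A match describes the letters of a window and shows no binding. The genes and target lists were chosen for known roles in this response. The contrast of their shares with those of all genes is therefore fixed in part by that choice and is a description.

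Hspa5 and Derl3 are shown as the best-studied target of the ER stress element and as the gene with the highest change, and Asns as a classic ATF4 target. Each is printed on the gene's strand over the 250 bases before its start, with the fixed letters of the match in capitals. Hspa5 lies at chr2:34771840-34772089 on the plus strand with its match at positions -65 to -47 from the start. Derl3 lies at chr10:75893148-75893397 on the plus strand, and its match at -156 to -138 reads on the opposite strand. Asns lies at chr6:7693210-7693459 on the minus strand with its match at -23 to -16.
Hspa5: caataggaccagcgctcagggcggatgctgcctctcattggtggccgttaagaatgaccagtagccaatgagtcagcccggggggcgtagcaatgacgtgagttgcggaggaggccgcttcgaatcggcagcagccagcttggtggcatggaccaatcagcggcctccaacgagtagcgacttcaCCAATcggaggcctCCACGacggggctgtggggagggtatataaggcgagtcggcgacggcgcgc
Derl3: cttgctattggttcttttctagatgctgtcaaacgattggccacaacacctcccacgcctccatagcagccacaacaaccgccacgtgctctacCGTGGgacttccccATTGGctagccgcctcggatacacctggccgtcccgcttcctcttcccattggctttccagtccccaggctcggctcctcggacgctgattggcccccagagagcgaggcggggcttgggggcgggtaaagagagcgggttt
Asns: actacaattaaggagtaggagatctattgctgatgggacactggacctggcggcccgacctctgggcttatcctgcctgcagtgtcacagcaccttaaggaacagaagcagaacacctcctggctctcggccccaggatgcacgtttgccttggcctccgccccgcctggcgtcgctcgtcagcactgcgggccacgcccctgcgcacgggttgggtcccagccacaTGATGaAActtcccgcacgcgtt

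The other matches are shown with up to 12 bases on either side, so that the spacing of the CCAAT and CCACG letters can be compared between genes. Hsp90b1 holds 2 ER stress elements. In Hsp90b1 (second), Creld2, Calr and Ero1lb the element reads on the strand opposite to the gene, and so does the C/EBP-ATF core in Herpud1, Chac1 and Trib3. Dnajb11 and Herpud1 hold the ER stress element II. Matches in Dnajb11 and Trib3 lie just after the start.
Hsp90b1, chr10:86705626-86705668: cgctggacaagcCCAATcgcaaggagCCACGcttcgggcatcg
Hsp90b1 (second), chr10:86705521-86705563: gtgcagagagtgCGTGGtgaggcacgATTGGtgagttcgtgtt
Dnajc3, chr14:118937815-118937857: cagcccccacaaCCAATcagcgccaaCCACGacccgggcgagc
Pdia6, chr12:17266479-17266521: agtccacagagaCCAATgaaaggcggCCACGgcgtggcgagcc
Creld2, chr15:88819508-88819550: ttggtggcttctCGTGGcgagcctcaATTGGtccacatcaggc
Calr, chr8:84847063-84847105: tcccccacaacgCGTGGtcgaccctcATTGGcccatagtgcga
Canx, chr11:50325788-50325830: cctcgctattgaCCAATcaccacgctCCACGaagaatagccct
Ero1lb, chr13:12565670-12565712: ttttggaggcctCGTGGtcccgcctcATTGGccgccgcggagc
Syvn1, chr19:6046520-6046562: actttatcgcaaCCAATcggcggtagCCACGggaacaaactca
Dnajb11, chr16:22857847-22857867: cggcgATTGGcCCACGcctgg
Herpud1 (element II), chr8:94386365-94386399: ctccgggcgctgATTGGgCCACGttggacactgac
Herpud1 (C/EBP-ATF core), chr8:94386305-94386336: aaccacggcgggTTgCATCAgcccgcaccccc
Chac1, chr2:119351037-119351068: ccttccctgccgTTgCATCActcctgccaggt
Trib3, chr2:152344034-152344051: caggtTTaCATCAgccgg

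The 10 genes with an ER stress element had a median change of 0.26, and the 23 genes with a window and no match had 0.11. All 6 PERK-ATF4 targets are among those without a match. Within the ATF6/XBP1 targets alone, the median was 0.27 for the 9 with a match and 0.19 for those with a window and no match. These medians are descriptions, and within the 10 the change ran from -0.20 (Ero1lb) to 1.19 (Derl3).

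The sensors and their transcription factors had changes from -0.24 to 0.16 on the log2 scale, and their median was -0.01. Ern1, which encodes the IRE1 kinase and ribonuclease, had a normalized log2 signal of 10.19, 11.10, 10.19 and 10.21 on pancreatectomy arrays 1 to 4, against 10.35, 10.21, 10.38 and 10.11 on sham arrays 1 to 4. Array 2 stood apart from the other pancreatectomy arrays, which lay within the sham range. The change was 0.16 ± 0.23 (SE) with an adjusted p of 0.828, and without pancreatectomy array 2 it was -0.07.

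Eif2ak3, the gene of PERK, was at 10.75, 11.19, 10.84 and 11.37 on the pancreatectomy arrays and at 10.73, 10.92, 11.47 and 10.69 on the sham arrays. Atf6 was at 8.60, 8.30, 8.21 and 8.53 on the pancreatectomy arrays and at 8.49, 8.38, 7.82 and 8.65 on the sham arrays. For both genes the groups covered much the same range, and the extreme sham value came from sham array 3, which is the highest for Eif2ak3 and the lowest for Atf6. The changes were 0.09 ± 0.22 for Eif2ak3 (adjusted p 0.911) and 0.08 ± 0.20 for Atf6 (adjusted p 0.915).

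Xbp1, whose spliced mRNA encodes the factor downstream of IRE1, was at 14.87, 15.13, 14.88 and 15.28 on the pancreatectomy arrays and at 14.99, 15.19, 15.32 and 15.06 on the sham arrays. Atf4 was at 15.65, 16.53, 15.45 and 16.10 on the pancreatectomy arrays and at 16.08, 15.74, 16.95 and 15.48 on the sham arrays. In both genes pancreatectomy arrays 2 and 4 lay above arrays 1 and 3, and sham array 3 was the highest of all 8. The change of Xbp1 was -0.10 ± 0.16 (adjusted p 0.844), with a 95% interval from -0.45 to 0.25. That of Atf4 was -0.13 ± 0.35 (adjusted p 0.914), with an interval from -0.93 to 0.66, and it was 0.16 without sham array 3.

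Ddit3, which encodes CHOP, was at 9.58, 9.54, 9.32 and 9.87 on the pancreatectomy arrays, against 9.91, 9.87, 9.67 and 9.85 on the sham arrays. Of the pancreatectomy arrays, 3 were below every sham array and array 4 was within the sham range. The change was -0.24 ± 0.16 with an adjusted p of 0.624, and the 95% interval ran from -0.60 to 0.11.

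The 11 ER chaperones and cochaperones had a median change of 0.32, and 10 of the 11 had a value above 0. Hspa5 encodes BiP, the main ER Hsp70 chaperone, which also holds the sensors inactive. Its signal was 16.08, 16.63, 15.83 and 16.82 on the pancreatectomy arrays, against 16.04, 15.80, 16.35 and 15.94 on the sham arrays. Pancreatectomy arrays 2 and 4 were above all sham arrays, and array 3 was below 3 of the 4. The change was 0.31 ± 0.24 (adjusted p 0.688), with a 95% interval from -0.25 to 0.86.

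Sdf2l1 and Creld2 had the highest changes among the chaperone genes. Sdf2l1, which encodes a partner of BiP and of the cochaperone ERdj3, was at 12.48, 13.16, 11.83 and 13.36 on the pancreatectomy arrays and at 12.49, 12.06, 12.01 and 11.78 on the sham arrays. Creld2, the gene of an ER-resident protein induced by ER stress, was at 14.81, 15.36, 14.30 and 15.56 on the pancreatectomy arrays and at 14.83, 14.17, 14.42 and 14.17 on the sham arrays. In both, pancreatectomy arrays 2 and 4 exceeded all sham arrays by over 0.5, array 1 was level with the highest sham array, and array 3 lay within the sham range. The change was 0.62 ± 0.33 for Sdf2l1 (1.54-fold, adjusted p 0.560) and 0.61 ± 0.29 for Creld2 (1.53-fold, adjusted p 0.513).

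Dnajb11 (ERdj3) and Dnajb9 (ERdj4) encode J-domain cochaperones that pass substrates to BiP, and Dnajb9 also restrains IRE1. Dnajb11 was at 12.41, 12.78, 12.06 and 13.04 on the pancreatectomy arrays and at 12.21, 11.92, 12.42 and 11.94 on the sham arrays. Dnajb9 was at 13.54, 13.94, 13.34 and 14.22 on the pancreatectomy arrays and at 13.18, 13.29, 13.63 and 13.36 on the sham arrays. The order of the pancreatectomy arrays was again 4, 2, 1, 3, and sham array 3 was the highest sham array. Their changes were 0.45 ± 0.23 (adjusted p 0.554) and 0.40 ± 0.22 (adjusted p 0.564).

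**Figure D2:**
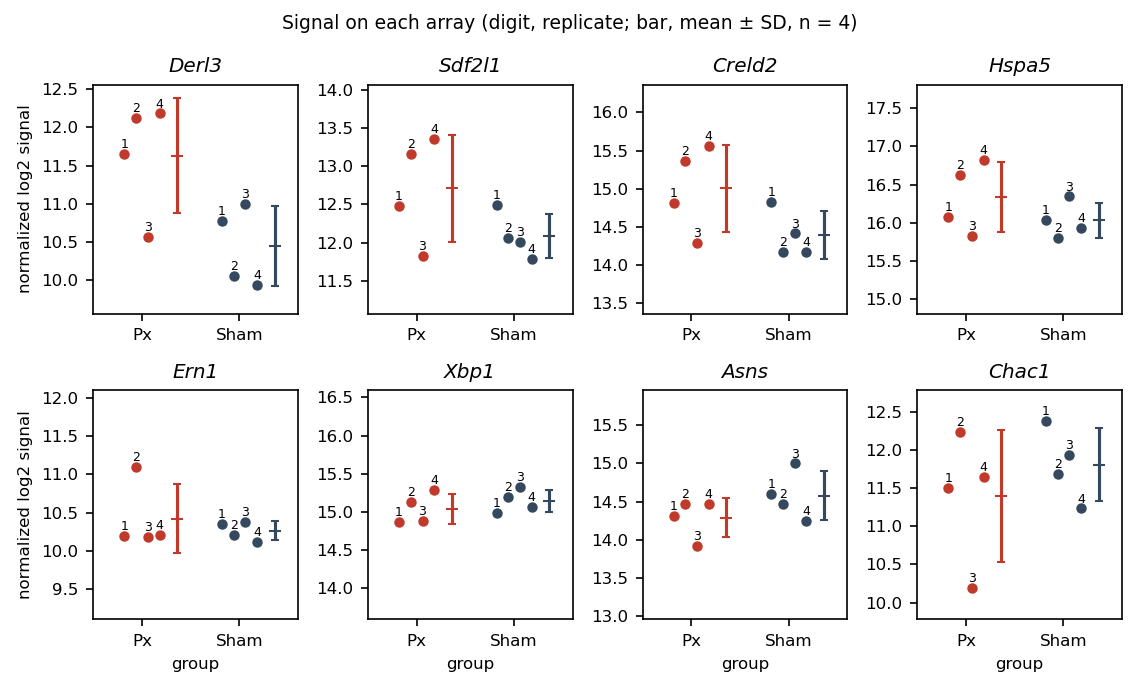
Normalized log2 signal of 8 genes on the 4 pancreatectomy arrays (Px, red) and 4 sham arrays (dark blue). Digits give the array and bars the mean ± SD (n = 4), and each panel spans 3.0 log2 units around its own centre, so levels are not compared between genes. In Derl3, Sdf2l1, Creld2 and Hspa5 pancreatectomy arrays 2 and 4 are above all sham arrays and array 3 is the lowest pancreatectomy array.

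None of the other chaperone genes had an unadjusted p under 0.05. Their changes were 0.38 for Hyou1, an Hsp110-like exchange factor for BiP, 0.32 for Manf, a secreted and ER-resident survival factor of beta cells, and 0.32 for Dnajc3 (p58IPK), which counters PERK. Hsp90b1, the ER Hsp90, had 0.12. The lectin chaperones of glycoproteins, Canx and Calr, had 0.04 and -0.01.

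Among the 6 genes for disulfide bond formation the median change was 0.15. The isomerases Pdia4, Pdia6, Pdia3 and P4hb had changes of 0.27, 0.26, 0.19 and 0.11. The oxidases that recharge them had values below 0, -0.10 for Ero1l and -0.20 for Ero1lb. Ero1lb, the form most abundant in the pancreas and named Ero1b today, was at 14.97, 15.05, 15.01 and 15.25 on the pancreatectomy arrays, against 15.24, 15.24, 15.42 and 15.21 on the sham arrays. Pancreatectomy array 4 alone reached the sham range, and the change of -0.20 ± 0.13 had an adjusted p of 0.628. After quantile scaling the Ero1lb groups did not overlap, with pancreatectomy lower, and the adjusted p was 0.531. The share of all features without overlap under that scaling is not given here.

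The 8 genes of ER-associated degradation had a median change of 0.15 and included the gene with the highest change of all 37. Derl3 encodes a derlin, a membrane protein that helps to export misfolded proteins from the ER. Its probe lies at chr10:75358503-75358562 on the mm9 build. The signal of Derl3 was 11.65, 12.12, 10.56 and 12.18 on the pancreatectomy arrays, against 10.78, 10.05, 11.00 and 9.94 on the sham arrays. Pancreatectomy arrays 1, 2 and 4 were above every sham array, and array 3 was below sham arrays 1 and 3. The change was 1.19 ± 0.40 (2.28-fold), with a 95% interval from 0.29 to 2.09, an unadjusted p of 0.0151 and an adjusted p of 0.349. Without pancreatectomy array 3 it was 1.54 with an adjusted p of 0.115.

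Derl3 is also expressed in exocrine pancreas and in plasma cells, so the markers of those cells are given beside it. The mean log2 signal of 21 measured acinar markers, relative to the sham mean, was -0.61, 0.14, 1.37 and 0.25 on pancreatectomy arrays 1 to 4, against 1.27, 0.28, -1.63 and 0.08 on sham arrays 1 to 4. That of 6 measured B and plasma cell markers was -0.29, -0.68, 5.56 and -0.06 on the pancreatectomy arrays, against -0.49, -0.13, 0.22 and 0.40 on the sham arrays. Pancreatectomy array 3 was the highest pancreatectomy array on both lists and the lowest for Derl3. The part of these cells in the change of Derl3 was not tested.

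The remaining degradation genes had changes from -0.10 to 0.27. Syvn1 (the ubiquitin ligase HRD1), Edem2 (a mannosidase that marks misfolded glycoproteins), Herpud1 and Sel1l (both parts of the HRD1 complex) and Edem1 had 0.27, 0.27, 0.18, 0.13 and 0.06. Derl1 and Derl2 had -0.06 and -0.10. The translocation genes Ssr1, a subunit of the translocon-associated complex, and Sec61b, a subunit of the translocation channel, had 0.21 and 0.05. In both, sham array 3 was the highest sham array, at 14.31 for Ssr1 and 16.95 for Sec61b. Probes disagreed in sign for Derl1 and Sec61b. The second Derl1 probe gave 0.01, and the other Sec61b probes gave 0.26 and -0.10, the first of them annotated to chromosome 15 rather than chromosome 4.

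**Figure D3:**
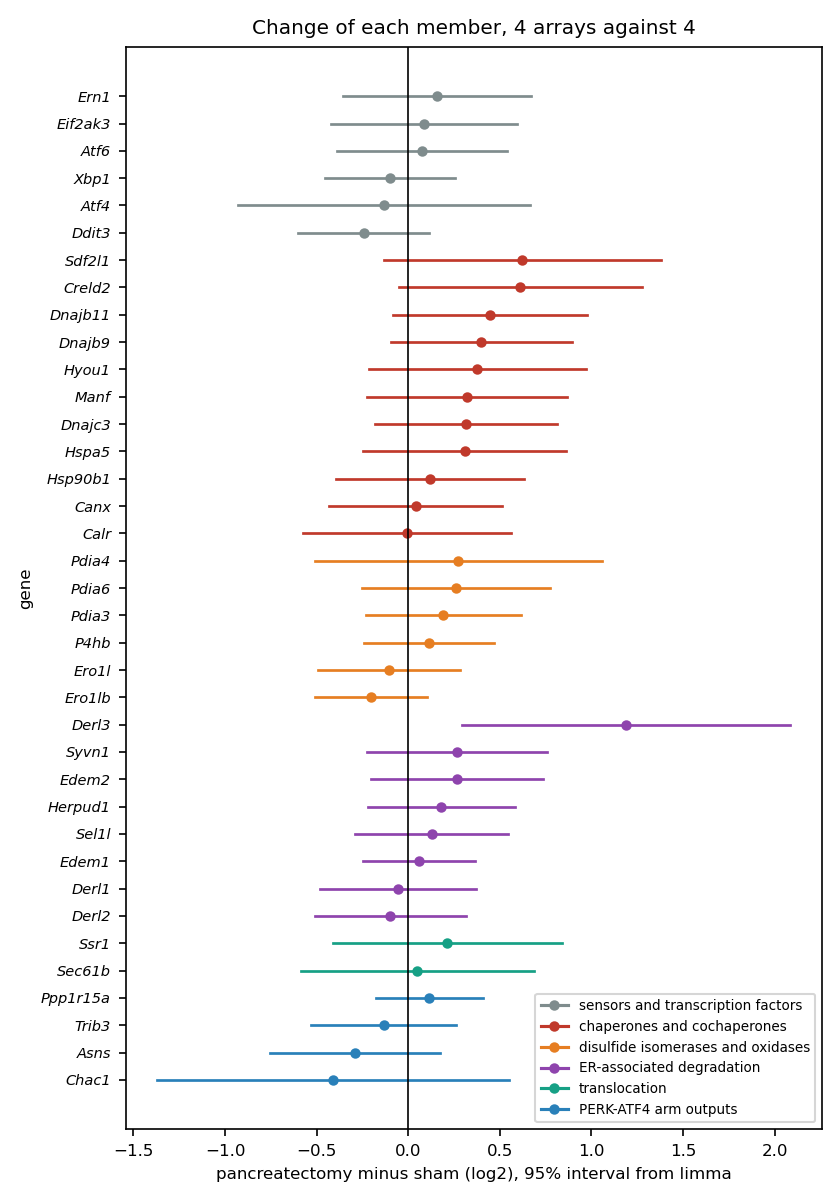
Change of each of the 37 genes, pancreatectomy minus sham on the log2 scale, as a point with its 95% interval from limma (4 arrays against 4), coloured by role. The interval of Derl3 alone lies above 0 before adjustment, and 10 of the 11 chaperone genes have points above 0.

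The 3 lowest changes of the 37 were those of Chac1, Asns and Ddit3, all PERK-ATF4 targets, and none passed the test. Chac1 encodes a glutathione-degrading enzyme, and its signal was 11.51, 12.24, 10.19 and 11.65 on the pancreatectomy arrays, against 12.38, 11.68, 11.93 and 11.23 on the sham arrays. Pancreatectomy array 3 was the lowest of all 8 by over 1.0 while the other arrays shared 1 range, and the change was -0.41 ± 0.42 (adjusted p 0.765). Without array 3 the change of Chac1 was -0.01.

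Asns encodes asparagine synthetase and carries the C/EBP-ATF core shown above. It was at 14.31, 14.47, 13.92 and 14.46 on the pancreatectomy arrays, against 14.60, 14.46, 15.00 and 14.25 on the sham arrays. Pancreatectomy array 3 was the lowest and sham array 3 the highest, and the other arrays overlapped. The change was -0.29 ± 0.20 with an adjusted p of 0.651.

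Trib3, which encodes a pseudokinase induced with CHOP, was at 9.90, 9.79, 9.56 and 9.58 on the pancreatectomy arrays and at 10.14, 9.96, 9.54 and 9.72 on the sham arrays, with overlapping groups. Its change was -0.13 ± 0.17 (adjusted p 0.812). Ppp1r15a, the gene of GADD34, which restores translation by dephosphorylating eIF2alpha, had 0.11 ± 0.13 and was the PERK-ATF4 target with a value above 0. Under quantile scaling its groups did not overlap, with pancreatectomy higher and an adjusted p of 0.564.

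The pancreatectomy arrays differed from each other more in the ATF6/XBP1 targets than the sham arrays did. The median SD of the 24 targets was 0.41 over pancreatectomy arrays and 0.22 over sham arrays, and the SD was larger in pancreatectomy for 20 of the 24. Over all features the median SD was 0.26 in pancreatectomy and 0.31 in sham, and 43.9% were larger in pancreatectomy. Pancreatectomy array 4 was the highest of all 8 arrays for 15 of the 24 targets. Array 3 was the lowest of the pancreatectomy arrays for 22 of them.

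The mean of the 24 ATF6/XBP1 targets on each array, relative to the sham mean, was 0.11, 0.50, -0.22 and 0.61 on pancreatectomy arrays 1 to 4, against 0.05, -0.10, 0.20 and -0.14 on sham arrays 1 to 4. Arrays 2 and 4 stood above all sham arrays and array 3 below them all. The mean of the 6 PERK-ATF4 targets was -0.14, 0.03, -0.55 and -0.05 on the pancreatectomy arrays, against 0.19, 0.03, -0.02 and -0.20 on the sham arrays. This mean was also lowest on array 3, and on the other pancreatectomy arrays it lay within the sham range.

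Subtracting the PERK-ATF4 mean from the ATF6/XBP1 mean on the same array removes what moves both alike. The difference was 0.25, 0.47, 0.34 and 0.66 on the pancreatectomy arrays, against -0.14, -0.14, 0.22 and 0.06 on the sham arrays. All 4 pancreatectomy arrays, array 3 included, were above all 4 sham arrays, with means of 0.43 ± 0.18 and 0.00 ± 0.17 (SD, n = 4 each). The nearest values, 0.25 on pancreatectomy array 1 and 0.22 on sham array 3, were closer to each other than the SD of either group. With quantile scaling the difference was 0.30, 0.47, 0.38 and 0.63 on the pancreatectomy arrays and -0.14, -0.13, 0.18 and 0.09 on the sham arrays. No test is given, because both lists were chosen with results of these arrays known. The larger further lists given below did not part in this way on pancreatectomy arrays 1 and 3.

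**Figure D4:**
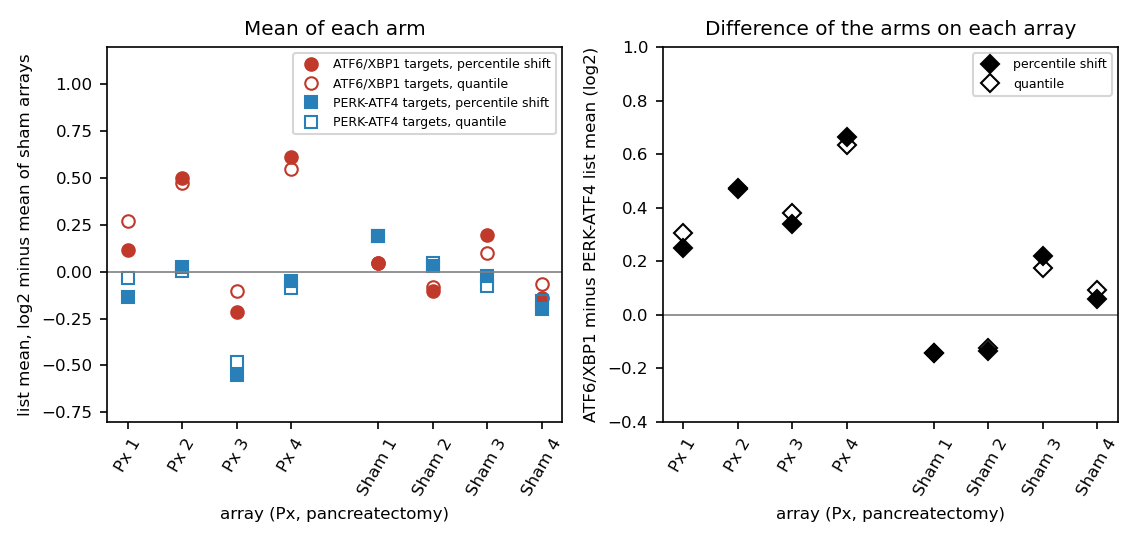
Left, mean log2 signal of 24 ATF6/XBP1 targets (red circles) and 6 PERK-ATF4 targets (blue squares) on each array, relative to the sham mean. Right, the difference of the 2 means on each array, with filled symbols for the 75th percentile shift and open ones for quantile scaling. The red mean varies from -0.22 to 0.61 over the pancreatectomy arrays, while the difference is above all sham values on each of them.

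Markers of other cell types also differed between the pancreatectomy arrays. The mean of 10 fibroblast and stellate cell markers, relative to the sham mean, was 3.05, 0.01, 2.39 and 0.36 on pancreatectomy arrays 1 to 4, against -0.23 to 0.31 on the sham arrays. That of 9 measured macrophage markers was 1.99, -0.46, 1.57 and 0.02 on the pancreatectomy arrays, against -0.24 to 0.19 on the sham arrays. Both lists were thus high on arrays 1 and 3, where the ATF6/XBP1 mean was lower, and near sham levels on arrays 2 and 4, where it was higher. Hepatocyte markers were high on pancreatectomy arrays 1 and 4 (4.21 and 3.43) and on sham array 4 (4.07), and gut epithelium markers on pancreatectomy array 3 (2.53). Islet endocrine markers were at -0.45, 0.09, -0.31 and -0.09 on the pancreatectomy arrays and at -0.05, -0.11, 0.42 and -0.26 on the sham arrays.

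Brightness moved with the same arrays. By the 75th percentile of processed signal, array brightness was 640, 280, 525 and 376 for the pancreatectomy arrays and 559, 548, 178 and 655 for the sham arrays. The dimmer pancreatectomy arrays 2 and 4, and sham array 3, the dimmest of all, had the highest ATF6/XBP1 means of their groups. With normexp background correction, the mean on sham array 3 was 0.01 and those on pancreatectomy arrays 1 to 4 were 0.17, 0.42, -0.16 and 0.61. The part of brightness and of other cell types in the result was not tested. With only the pancreatectomy arrays low in fibroblast and macrophage markers, arrays 2 and 4, against all sham arrays, the median change was 0.52 for the ATF6/XBP1 targets, -0.05 for the PERK-ATF4 targets and 0.04 for all features. These are also the 2 arrays with the highest ATF6/XBP1 means, so a higher ATF6/XBP1 median is fixed by their choice and is given as a description.

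**Figure D5:**
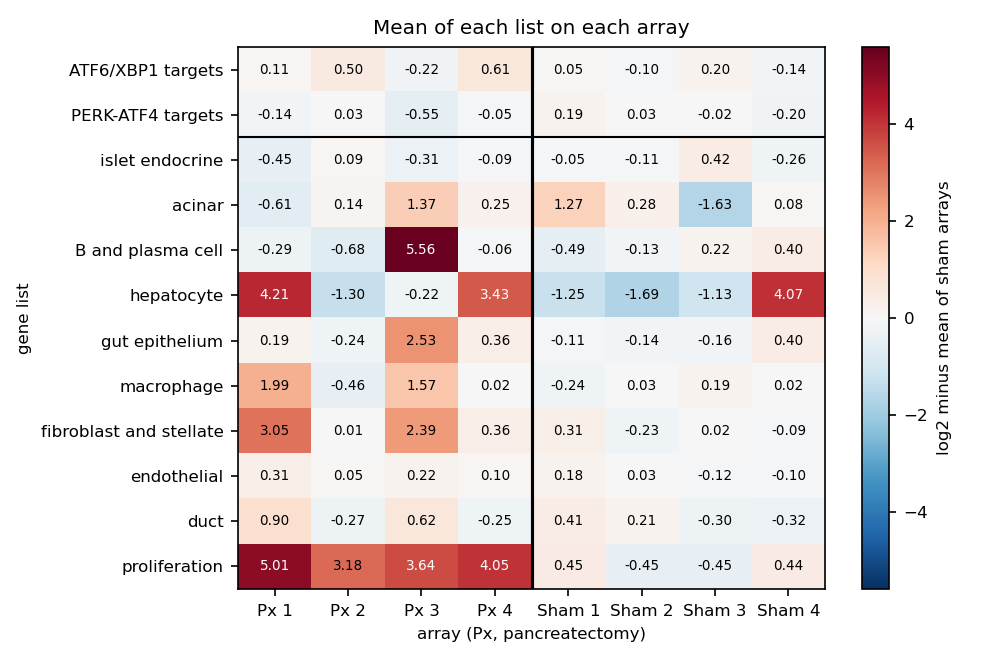
Mean log2 signal of each gene list on each array, relative to the mean of the 4 sham arrays, with the value printed in each cell. Rows above the line are the ATF6/XBP1 and PERK-ATF4 targets, and rows below it are marker lists of islet and other cells and of proliferation. Fibroblast and macrophage markers are high on pancreatectomy arrays 1 and 3, and proliferation markers on all 4 pancreatectomy arrays (3.18 to 5.01).

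Further genes of the same pathways gave no call in either direction in limma. Of 57 more genes for ER folding, glycosylation and quality control, 56 were measured. Among these 41 had a change above 0, against 45.1% of all features, and the median was 0.15. At an unadjusted p under 0.05 in limma, 4 were higher and 0 lower, against 4.22% and 6.28% of all features. The highest were Fkbp11 (1.46 ± 0.87) and Fkbp7 (0.78 ± 0.35), both peptidyl-prolyl isomerases of the secretory pathway, and Ssr3 (0.60 ± 0.22), a translocon-associated subunit. Fkbp11 lay between 9.76 and 10.97 on the pancreatectomy arrays, against 10.67, 9.76, 6.10 and 9.67 on the sham arrays. Sham array 3 was far below the others, and without it the change of Fkbp11 was 0.48. The mean of the acinar markers was also lowest on sham array 3 (-1.63). Fkbp7 had 0.44 without pancreatectomy array 1. Its signal was highest on pancreatectomy arrays 1 and 3, at 9.99 and 9.05, where fibroblast markers were high. The part of other cell types in the changes of Fkbp11 and Fkbp7 was not tested. Ssr3 was at 13.62, 14.06, 13.29 and 14.07 on the pancreatectomy arrays, against 13.26, 13.27, 12.80 and 13.29 on the sham arrays. Its groups did not overlap, although array 3 exceeded the highest sham array by under 0.01, and the adjusted p was 0.391. The lowest were Erlec1 (-0.19), Man1b1 (-0.18) and Os9 (-0.11), which act on misfolded glycoproteins before degradation. The mean of the 56 genes on each array had the order seen above, with 0.11, 0.34, -0.14 and 0.43 on the pancreatectomy arrays, against -0.02, -0.04, 0.14 and -0.08 on the sham arrays.

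Of 40 further genes of ATF4 and the integrated stress response, 39 were measured, 18 had a change above 0 and the median was -0.02. In limma 1 was higher and 2 were lower at an unadjusted p under 0.05, against 4.22% and 6.28% of all features. Psat1, an enzyme of serine synthesis, was at 10.40, 10.10, 9.78 and 10.33 on the pancreatectomy arrays, against 9.61, 9.28, 9.51 and 9.12 on the sham arrays. All pancreatectomy arrays were above all sham arrays, and the change was 0.77 ± 0.19 with an adjusted p of 0.181. Slc3a2, a subunit of amino acid transporters, was lower on all pancreatectomy arrays than on any sham array, with a change of -0.41 ± 0.17 and an adjusted p of 0.458. The others at the ends of this list were Cth (1.14 ± 0.75) and Gdf15 (0.85 ± 0.57) at the top and Atf5 (-0.61 ± 0.23) and Sars (-0.38 ± 0.23) at the bottom. The list thus held changes in both directions and had a median near that of all features. Its mean on each array was 0.21, 0.01, -0.06 and -0.02 on the pancreatectomy arrays, against 0.04, 0.01, 0.11 and -0.16 on the sham arrays. On pancreatectomy arrays 1 and 3 this mean was above that of the 56 ER folding genes (0.11 and -0.14), and on arrays 2 and 4 it was below.

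All 21 further regulators of the response were measured, with 6 changes above 0 and a median of -0.09. The highest were Creb3l3 (1.49 ± 0.82), an ER-anchored transcription factor enriched in liver and gut, Casp12 (0.18 ± 0.34) and Wfs1 (0.10 ± 0.19). Creb3l3 was highest on pancreatectomy arrays 3 and 1, at 10.29 and 9.18, and on sham array 4, at 9.57. Gut or hepatocyte markers were high on these arrays. Hepatocyte markers were also high on pancreatectomy array 4 (3.43), where Creb3l3 was lower, at 8.62. The part of gut and liver cells in its change was not tested. The lowest were Mbtps1 (-0.40 ± 0.23), the site-1 protease that cuts ATF6, Tmbim6 (-0.27 ± 0.16) and Rtcb (-0.26 ± 0.15), the ligase that joins spliced Xbp1. None of the 21 had an unadjusted p under 0.05.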

How the data were processed

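The deposited scanner files hold the brightness of each spot (intensity, linear scale) and flags for background, saturation and outliers. Per the file headers they came from Feature Extraction 10.7.3.1, where the submitters' processing notes name 9.1, with background subtraction and detrending inside each array and probe positions on mm9. The authors' deposited table holds group averages of raw intensity and of log2 values, from GeneSpring GX 12.5 and a percentile shift, per its header, and served for symbols and as another source of differences. The members and lists were chosen with earlier results of these data known.

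For the main values, processed signal was put on the log2 scale and shifted so that the 75th percentile over non-control spots was equal on the 8 arrays. Outlier spots were left out (113 to 228 of 59305 per array), no spot was saturated, and repeated spots were averaged. Kept probes were well above background on at least 4 of 8 arrays with at least 3 values per group, and the brightest kept probe stood for its gene. Of 51 probes of the 37 genes, 48 were kept. Symbols were updated through Entrez identifiers of the GRCm38 assembly (30994 of 33325 probes with a symbol matched). limma 3.58.1 under R 4.3.3 (lmFit, eBayes, two-sided) compared the groups, with Benjamini-Hochberg adjustment over 30858 features and a threshold of 0.05. The code was tested on simulated data. On the slide, pancreatectomy fills columns 3 and 4 and sham columns 1 and 2, so the effect of column cannot be told apart from that of the operation. Each of 2 slide rows holds both groups.

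Signal on every array is given for the sensors and transcription factors, Hspa5, and the 5 highest and 5 lowest changes, and of the further lists the 3 highest and 3 lowest changes are named. Values on every array of Ssr3 and Psat1 were added after they were seen. The planned normexp correction used the median in place of the mean spot signal. Precision is limited by having 4 arrays per group.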

Additional observations from a re-analysis of the deposited data

Results flagged for a closer look

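An array was marked where its gap to the nearest array of its group, divided by the range of the group, exceeded Dixon's 95% critical value. Of 134 groups of 4 arrays tested, 74 of them of the 37 genes, 12 were marked, and chance marks about 1 in 20. Sham array 3, the dimmest array, accounts for 10 of the 12. Among the 37 genes it lay apart at 11.0 for Pdia4, 15.4 for Ero1lb, 14.1 for Derl2 and 14.3 for Ssr1, each above the other sham arrays. Among further genes it lay above them at 14.2 for Slc3a2, 14.2 for Sars and 14.5 for Mbtps1, and below them at 12.8 for Ssr3. Its means of the ER-associated degradation genes (0.27) and the translocation genes (0.64), relative to the sham mean, were also apart. The other marked values were Ern1 on pancreatectomy array 2, at 11.1, above the other pancreatectomy arrays, and Os9 on pancreatectomy array 3, at 13.5, below them.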

How the results depend on the processing

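No gene of the 37 was called under any alternative run, namely quantile, median or no scaling, normexp, both other probe filters, the mean of probes or every probe alone, array weights, an intensity trend, the slide row as a block or each row alone, and leaving out arrays. Depending on the setting, 0 to 10 of the 37 had an unadjusted p under 0.05 in limma, against 1.25% to 21.1% of all features. The 10 came from pancreatectomy arrays 2 and 4 against all sham arrays, where 8.07% of all features passed, and 8 came without pancreatectomy array 3, where 8.09% did. Over the 37 genes, arrays 2 and 4 had the highest pancreatectomy means and array 3 the lowest. Larger counts thus follow in part from the choice of arrays and are descriptions. The median over the 37 ranged from 0.05 to 0.24 with 1 array left out, that over the ATF6/XBP1 targets from 0.12 to 0.38, that over the PERK-ATF4 targets from -0.26 to -0.06, and the difference of the 2 target medians from 0.33 to 0.51. Within slide rows 1 and 2 the ATF6/XBP1 median was 0.34 and 0.14. Array weights made 1 further gene pass, Psat1 (0.83, adjusted p 0.0446). With these weights 407 of the 30858 features passed as higher and 361 as lower, against 168 and 26 in the main fit. No paired analysis was possible because the labels give the 2 groups no shared replicate numbers.

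Uncalled values turned sign as follows, most of them near 0 but not those of Gdf15 (0.85 over all arrays) and Chac1 (-0.41), and the cause was not tested. Quantile scaling gave 0.039 for Calr and 0.012 for Derl1, and normexp 0.032 for Derl1. Median scaling gave -0.0040 for Hsp90b1, -0.047 for Atf6, -0.036 for Eif2ak3, -0.011 for P4hb, -0.064 for Edem1, -0.082 for Canx, -0.0089 for Ppp1r15a, -0.073 for Sec61b and -0.024 for Wfs1. Array weights gave 0.045 for Atf4, -0.069 for Atf6, -0.027 for Edem1, 0.067 for Calr, -0.016 for Sel1l and -0.077 for Wfs1. Slide row 1 alone gave 0.18 for Atf4, 0.14 for Calr, 0.042 for Derl1, 0.0043 for Erlec1, 0.019 for Os9 and -0.38 for Casp12. Slide row 2 alone gave -0.052 for Ern1, -0.040 for Herpud1, -0.032 for Edem2, -0.069 for Canx, 0.075 for Ero1l, -0.12 for Sec61b and -0.053 for Ssr1.

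Pancreatectomy arrays 2 and 4 against all sham arrays gave 0.25 for Atf4, 0.064 for Xbp1, 0.14 for Chac1, 0.31 for Calr, 0.0053 for Ero1l, 0.16 for Derl1, 0.12 for Derl2, -0.21 for Gdf15 and -0.0084 for Casp12. With quantile scaling, an alternative chosen after seeing the data, the same arrays gave 0.20 for Atf4, 0.14 for Chac1, 0.26 for Calr, 0.15 for Derl1, 0.045 for Derl2 and -0.31 for Gdf15. Pancreatectomy array 2 against sham arrays 1 to 3 gave 0.27 for Atf4, 0.24 for Chac1, 0.17 for Calr, 0.067 for Derl1, 0.013 for Derl2, 0.076 for Erlec1 and -0.46 for Casp12. With 1 array left out in turn, the range was -0.12 to 0.16 for Calr, -0.16 to 0.028 for Derl1, -0.067 to 0.24 for Ern1, -0.064 to 0.15 for Canx, -0.078 to 0.26 for Sec61b, -0.33 to 0.16 for Atf4, -0.0013 to 0.27 for Hsp90b1, -0.024 to 0.26 for Eif2ak3, -0.0056 to 0.24 for Sel1l, -0.011 to 0.22 for Wfs1, -0.095 to 0.18 for Atf6, -0.20 to 0.0072 for Derl2 and -0.098 to 0.43 for Casp12.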

Other observations

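The C/EBP-ATF core TGATGNAA was present in 13 of 31 further ATF4 and integrated stress response genes with a promoter window (41.9%), among them Atf3, Slc7a11, Nupr1, Fgf21, Pck2 and Pycr1, and in 4.51% of all 27025 genes with a window. The ER stress element was found in none of these 31 and in none of 45 further ER folding, glycosylation and quality control genes with a window, and its second form was found in 1 of the 45, Krtcap2. These lists were also chosen for known roles in the pathways, so their shares beside those of all genes are descriptions.

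The second Dnajb9 probe, at chr12:45308272-45308331 on mm9, gave a change of 0.65 ± 0.37, and the brighter one used above gave 0.40 ± 0.22. The 3 kept Ssr1 probes gave 0.21, 0.23 and 0.22, and the 3 Derl2 probes gave -0.10, -0.10 and -0.15. The authors' deposited table gave a difference of 1.19 for Derl3, 0.31 for Hspa5 and -0.40 for Chac1.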
